A study of Mus musculus with 40 samples.

Results

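The transcripts described here encode granule proteases of mast cells: the tryptases Tpsb2, Tpsab1 and Tpsg1, carboxypeptidase A3 (Cpa3) and granzyme B (Gzmb). They were chosen by gene symbol, 5 of the 23812 rows of the deposited table, each symbol standing on 1 row. RNA sequencing covered 40 mouse libraries in 10 groups of 4. Whole ear skin came from DTR mice, which join the Gt(ROSA)26Sortm1(HBEGF)Awai allele of a C57BL/6 strain with the Mrgprdtm1.1(cre)And allele of a B6.129S1(Cg) strain, so that cells with a history of Mrgprd expression carry the diphtheria toxin receptor, and from Cre mice, which have the Mrgprdtm1.1(cre)And allele alone. Both kinds of mice had diphtheria toxin for 3 to 4 weeks per the treatment protocol, with acetone and olive oil (4:1) on both labels, but the sample labels name toxin for DTR mice only, so whether Cre mice received it cannot be told. Further ear skin came from wild-type C57BL/6J mice given 50 mM β-alanine, a ligand of the MrgprD receptor, or PBS on the ears, daily for 2 days. Sorted mast cells came from the DTR and Cre lines, by a gate that the labels do not give. Peritoneal mast cells of C57BL/6J mice were cultured for 6 h with 4 mM glutamate or vehicle in a glutamate-free Tyrode's buffer, or for 48 h with 50 µM NS102, a kainate receptor antagonist, or vehicle in a medium that is not given. Ages and sexes are not given, the skin is labelled epidermal although whole ear was taken, and nothing ties replicates to single animals or cultures, so p-values measure the spread between these libraries, which may be technical.

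Tryptases are trypsin-like serine proteases that mast cells store in secretory granules, bound to the heparin chains of serglycin, and release on activation. Carboxypeptidase A3 is a zinc protease that trims residues from the C-terminal end of peptides and is stored in the same granules together with chymases. Granzyme B cleaves after aspartate and is best known from cytotoxic lymphocytes, which deliver it into target cells through perforin; mouse mast cells in culture are known to make it as well. Tpsb2 and Tpsab1 encode soluble tryptases, and Tpsg1 a tryptase with a membrane anchor. C57BL/6 mice are known to carry a splice defect in Tpsab1, and RefSeq (GRCm38.p6) lists this gene as a transcribed pseudogene and the other members as protein-coding, so Tpsab1 values below are transcript levels and say nothing of enzyme.

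In the deposited table (build mm9) the tryptases lie side by side on chromosome 17: Tpsab1 at 25480189 to 25482507, Tpsb2 at 25503277 to 25505037, 20769 bp further on, and Tpsg1 at 25507497 to 25511387, after a gap of 2459 bp. The row of Tpsg1 overlaps that of Cacna1h, a calcium channel gene, by 157 bp. Cacna1h ranged from 0.02 to 2.18 FPKM (fragments scaled by transcript length and library size) over all libraries, and whether counting used strand is not stated. Cpa3 lies on chromosome 3 at 20115514 to 20142080, and Gzmb on chromosome 14 at 56877694 to 56881097. Transcripts of Tpsb2 and Tpsab1 shared 0 of 1636 windows of 50 bases in GENCODE vM21 and at most 39 bases in a row, and neither shared more than 20 bases in a row with Tpsg1; reads shorter than such a run could still be split between them.

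Promoter sequences are shown for the members that moved in opposite directions in sorted cells, Cpa3 and Tpsg1 higher and Gzmb lower in DTR mice. RefSeq (GRCm38.p6) windows were listed for 3 of the 5 members, and the 250 bases before the start are printed, 5′ to 3′ on the strand of the gene. Capitals mark AGATAA or TGATAA, the letters that GATA factors are known to prefer, and TGANTCA, those of AP-1 factors, searched on both strands.
Cpa3, chr3:20242182-20242431, minus strand: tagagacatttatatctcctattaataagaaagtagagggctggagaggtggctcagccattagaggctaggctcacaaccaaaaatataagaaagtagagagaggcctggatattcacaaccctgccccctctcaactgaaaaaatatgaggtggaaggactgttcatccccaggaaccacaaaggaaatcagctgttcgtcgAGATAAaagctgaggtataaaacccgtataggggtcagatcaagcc
Tpsg1, chr17:25369023-25369272, plus strand: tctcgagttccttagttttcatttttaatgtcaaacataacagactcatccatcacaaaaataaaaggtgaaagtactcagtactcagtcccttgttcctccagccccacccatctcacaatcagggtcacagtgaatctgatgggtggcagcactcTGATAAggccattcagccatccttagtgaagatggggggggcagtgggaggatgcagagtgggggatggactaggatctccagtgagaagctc
Gzmb, chr14:56262335-56262584, minus strand: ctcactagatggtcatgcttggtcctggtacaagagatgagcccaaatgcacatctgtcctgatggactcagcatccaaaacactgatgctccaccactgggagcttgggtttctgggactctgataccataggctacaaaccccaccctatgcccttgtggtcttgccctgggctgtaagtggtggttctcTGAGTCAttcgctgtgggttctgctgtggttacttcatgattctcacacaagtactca
The Cpa3 window held 1 AGATAA, which began 46 bases before the start, and the Tpsg1 window 1 TGATAA, 93 bases before it. A second Tpsg1 window, at chr17:25370303-25370552, held 0 matches to either. The Gzmb window held 1 TGANTCA, 58 bases before the start, and 0 of the GATA letters. Over all 32851 such windows, 16.6% held AGATAA or TGATAA and 6.75% held TGANTCA. The E-box letters CANNTG, palindromic in their fixed bases, occurred 2 times in the Cpa3 window, 2 times in that of Gzmb 0 times in the first Tpsg1 window and 3 times in the second, against 66.2% of windows with at least 1. These are matches of letters in a window and show no binding.

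Levels of the members spanned the whole range of the table. Tpsb2 was the row with the highest mean in all 4 cultured groups, reaching 53601 FPKM with glutamate, and stood at rank 2 in DTR sorted cells and rank 5 in Cre sorted cells. The 5 members together made up 15.6% of all FPKM in glutamate cultures, 12.4% in vehicle cultures at 6 h, 14.3% in NS102 cultures and 11.3% in vehicle cultures at 48 h. Their sum was 7.36% in DTR sorted and 2.65% in Cre sorted cells, and in skin it lay between 1.66e-04% with β-alanine and 0.0135% in DTR mice.

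Each member had its own order of groups. For Tpsb2 the means ran from glutamate cultures over NS102 (39499 FPKM) and vehicle at 6 h (38223 FPKM), whose ranges overlapped, to vehicle at 48 h, DTR sorted and Cre sorted cells, DTR and PBS skin, again overlapping, Cre skin and β-alanine skin. Cpa3 differed at the top, where vehicle at 48 h (13113 FPKM), glutamate (12837 FPKM) and NS102 (11774 FPKM) overlapped and vehicle at 6 h stood apart at 8271 FPKM. Tpsab1 had its highest means in NS102 (391.9 FPKM) and vehicle at 6 h (377 FPKM), and these, DTR sorted, Cre sorted and glutamate groups formed a chain of overlapping ranges, with vehicle at 48 h apart below at 68.9 FPKM. Tpsg1 and Gzmb shared the order NS102, vehicle at 6 h, glutamate and vehicle at 48 h, all without overlap. Gzmb then dropped to 16.5 FPKM in Cre sorted cells and below 2 FPKM in every library of the remaining groups. Such differences between sorted and cultured cells go together with differences in strain, origin and handling.

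**Figure D1:**
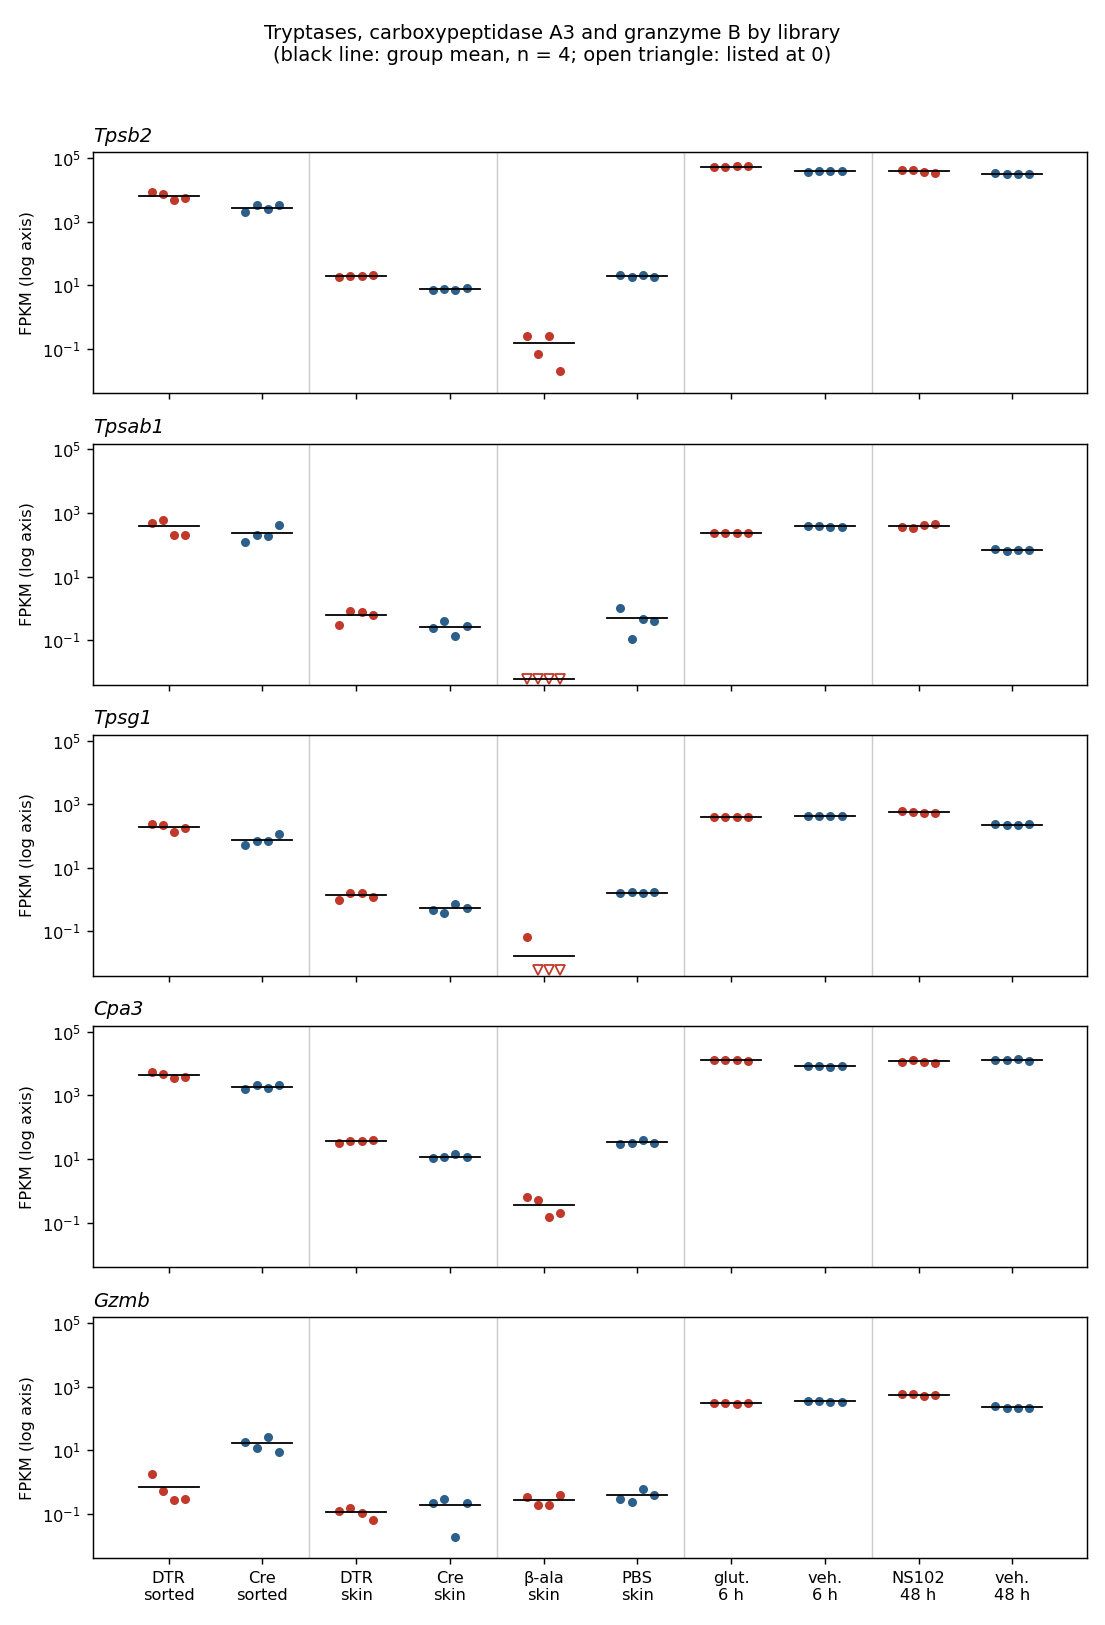
FPKM of the 5 members in each of the 40 libraries (points, log axis), with the group mean as a black line and open triangles for values listed at 0. Tpsb2, Tpsab1, Tpsg1 and Cpa3 are high in sorted and cultured cells, low in skin and lowest in β-alanine skin, whereas Gzmb is high in cultured cells and intermediate in Cre sorted cells.

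The libraries as a whole set limits on these readings. Total FPKM ranged from 117574 to 508485 per library, with the lowest totals in sorted cells, and Pearson correlations of log2 values within groups ranged from 0.9392 to 0.9987. The female-specific transcript Xist was at 24.5 to 37.1 FPKM in DTR and Cre skin, at most 0.101 FPKM in β-alanine and PBS skin and at most 0.0281 FPKM in sorted cells, so the groups of a treatment matched in sex while the kinds of sample did not. Defining markers of mast cells were present: Kit, the stem cell factor receptor, averaged 196 FPKM in DTR sorted and 47.55 FPKM in Cre sorted cells, and Ms4a2, the beta chain of the IgE receptor, 346 and 228 FPKM in these groups. Keratinocyte genes summed to 0.645 to 8.71 FPKM in DTR sorted and 30.4 to 40.95 FPKM in Cre sorted cells, against 12290 to 14890 FPKM in DTR and Cre skin. The sum in Cre sorted cells was mostly Cdh1, at 35.2 FPKM on average and 0.112 FPKM in DTR sorted cells. The keratins Krt5 and Krt14 averaged 0.055 and 1.05 FPKM in Cre sorted and 0.473 and 1.72 FPKM in DTR sorted cells.

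Tpsb2 and Cpa3 were higher in the skin of DTR mice than in that of Cre mice. The comparison was set up for loss of MrgprD neurons, but the groups also differ in the receptor allele and, by the labels, in toxin. These cannot be told apart here. Tpsb2 was at 17.6, 19.6, 19.7 and 21.6 FPKM in DTR skin and at 6.85, 7.83, 7.28 and 8.41 FPKM in Cre skin. Cpa3 was at 31.8, 37.4, 37.01 and 40.7 FPKM in DTR skin and at 10.7, 11.5, 14.2 and 11.5 FPKM in Cre skin. For both genes every DTR library lay above every Cre library. The means were 19.6 ± 1.64 and 7.59 ± 0.678 FPKM for Tpsb2 and 36.7 ± 3.69 and 11.97 ± 1.504 FPKM for Cpa3 in DTR and Cre skin (SD, n = 4 each), 2.58 and 3.07 times as high. The fitted log2 changes were 1.26 (SE 0.07) for Tpsb2 and 1.54 (SE 0.09) for Cpa3, both with an adjusted p of 1.01e-05 in limma. Of 12607 genes tested, 13.6% passed, with a median log2 change of 0.01. In whole tissue, a different number of mast cells and a different amount of mast cell RNA per cell cannot be told apart, in either direction.

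Tpsg1, Tpsab1 and Gzmb did not reach the filter of 1 FPKM in 4 libraries in this comparison. Tpsg1 was at 0.986, 1.63, 1.60 and 1.201 FPKM in DTR skin and at 0.483, 0.368, 0.738 and 0.532 FPKM in Cre skin, without overlap. The exact permutation test gave p = 0.0286, the smallest that 4 against 4 libraries allow, and 0.0714 after adjustment over 5 such tests. Tpsab1 averaged 0.617 ± 0.233 FPKM in DTR and 0.261 ± 0.108 FPKM in Cre skin with overlapping ranges (exact permutation test, adjusted p = 0.0952). Gzmb averaged 0.115 ± 0.0397 FPKM in DTR and 0.191 ± 0.121 FPKM in Cre skin and also overlapped (exact permutation test, adjusted p = 0.321). At these levels a difference in Gzmb between the skins was not detectable.

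Some other granule genes moved alongside in DTR skin. All 3 chymase family genes tested passed with higher values: Mcpt4, a connective tissue mast cell chymase (log2 1.71), Cma1, the other main chymase of these cells (1.28), and Ctsg, cathepsin G (0.58). Ctsg was at most 0.923 FPKM in Cre skin and reached the filter through DTR skin alone, the group in which it was high. Cma2, under the filter, was lower without overlap, at 0.1245 FPKM in DTR and 0.3441 FPKM in Cre skin on average. Of 14 mast cell markers other than proteases that were tested, 9 were higher and 0 lower, with a median log2 change of 0.31; Cyp11a1, a steroid-synthesis enzyme that mast cells also express, led them at 1.06. Of all genes tested, 7.38% were higher and 6.25% lower. Among T and NK lymphocyte, macrophage and keratinocyte genes, 1 of 11, 1 of 9 and 2 of 10 were higher, and 0 in these lists were lower. In lists this short, such counts cannot be told from the shares over all genes. Among 15 tested genes that activate, store or inhibit granule proteases, Srgn, the serglycin core protein to which they bind, was higher at 0.31, and Serpina3n, Ctsl and Serpinb6a were lower at -0.55, -0.23 and -0.27.

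β-alanine skin had almost none of these transcripts. Tpsb2 was at 0.249, 0.0712, 0.263 and 0.0195 FPKM in β-alanine skin, against 20.5, 17.8, 21.6 and 18.2 FPKM in PBS skin. Cpa3 was at 0.619, 0.502, 0.152 and 0.206 FPKM in β-alanine skin, against 30.7, 31.8, 39.4 and 32.4 FPKM in PBS skin. Tpsg1 was at 0.0652 FPKM in 1 β-alanine library and listed at 0 in the other 3, against 1.64, 1.76, 1.58 and 1.68 FPKM in PBS skin. The groups were far apart for all 3 genes, with PBS means 130 times, 90.7 times and 102 times the β-alanine means, ratios that rest on denominators near 0. Fitted log2 changes were -4.16 (SE 0.10) for Tpsb2, -4.67 (SE 0.12) for Cpa3 and -1.39 (SE 0.07) for Tpsg1, the last held down by the added 1 FPKM (limma adjusted p = 7.49e-09, 1.82e-08 and 5.86e-06). All 3 genes were under 1 FPKM in every β-alanine library and reached the filter through the PBS libraries alone. Their p-values therefore rest on genes admitted by the group in which they were high, and add little to the levels themselves. Only 0.212% of the 12709 genes tested passed, 27 in all, and 25 of those were lower.

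Tpsab1 was listed at 0 in all 4 β-alanine libraries, against 1.05, 0.108, 0.459 and 0.402 FPKM in PBS skin (exact permutation test, p = 0.0286, adjusted p = 0.0714). Gzmb behaved differently from the other members, at 0.282 ± 0.105 FPKM in β-alanine and 0.380 ± 0.158 FPKM in PBS skin (SD, n = 4 each), with overlapping ranges and an exact permutation adjusted p of 0.429. All 4 chymase family genes tested fell as well, led by Mcpt2 with 0.401 FPKM in β-alanine and 138 FPKM in PBS skin; in DTR and Cre skin Mcpt2 averaged 0.00853 and 0.00777 FPKM. Cma2, under the filter, averaged 1.353 FPKM in β-alanine and 0.4117 FPKM in PBS skin, with overlapping ranges. Of 14 mast cell markers tested, 4 were lower (Cyp11a1, Ms4a2, Mrgprb1 and Gata2), among them Ms4a2 at 0.0205 and 2.83 FPKM in β-alanine and PBS skin, and Mrgprb1, a receptor of connective tissue mast cells, at 0.00667 and 1.76 FPKM. The median over the 14 was -0.36, whereas Cma1, Mcpt4 and the members named above fell close to 0. Mcpt2, Ctsg, Cyp11a1, Ms4a2 and Mrgprb1 were under 1 FPKM in every β-alanine library and reached the filter through PBS skin alone. Their calls thus rest on genes admitted by the group in which they were high. Of T and NK lymphocyte, macrophage, neutrophil and keratinocyte genes, 0 of 11, 0 of 9, 0 of 2 and 0 of 10 tested passed. Since 0.212% of all genes passed, these counts are near the share over all genes and say little of such cells. PBS skin had members at levels near those of DTR skin and above Cre skin (Tpsb2 19.5, 19.6 and 7.59 FPKM in PBS, DTR and Cre skin), in mice of another strain and, by Xist, another sex.

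**Figure D2:**
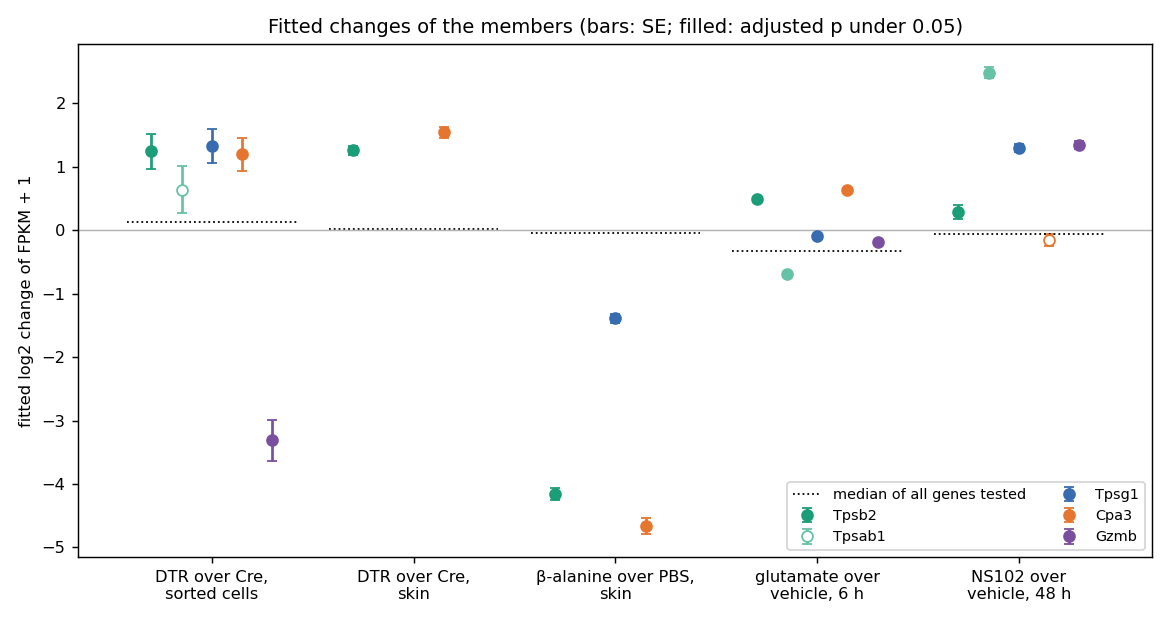
Fitted log2 change of FPKM + 1 for each member in the 5 treatments, with SE bars; filled points passed the test (limma, adjusted p under 0.05), open points did not, and members under the filter have no point. Dotted lines give the median of all genes tested, which lies at -0.33 for glutamate and at 0.13 for sorted cells.

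Sorting raised all 5 members. In Cre sorted cells over Cre skin, the log2 changes were 8.29 for Tpsb2, 7.41 for Tpsab1, 5.60 for Tpsg1, 7.18 for Cpa3 and 3.77 for Gzmb (limma adjusted p at most 1.79e-06), whereas 89.8% of all genes passed and the median gene changed by -1.42. The gain was 359-fold for Tpsb2, 158-fold for Cpa3 and 86.4-fold for Gzmb. Tpsab1, Tpsg1 and Gzmb were at most 0.395, 0.738 and 0.305 FPKM in Cre skin and reached the filter through the sorted cells alone. Their p-values thus rest on genes admitted by the group in which they were high.

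Sorted cells of DTR mice had higher Tpsb2, Tpsg1 and Cpa3 and much lower Gzmb than those of Cre mice. As in skin, neuron loss, receptor allele and toxin cannot be told apart. Tpsb2 was at 8253, 7481, 4821 and 5357 FPKM in DTR sorted and at 1983, 3244, 2461 and 3227 FPKM in Cre sorted cells. Cpa3 was at 5306, 4813, 3569.5 and 3718 FPKM in DTR sorted and at 1587, 2060.5, 1746 and 2171 FPKM in Cre sorted cells. Tpsg1 was at 231, 220.1, 131 and 172 FPKM in DTR sorted and at 51.9, 67.3, 67.3 and 119 FPKM in Cre sorted cells. All 3 genes were without overlap, and libraries 1 and 2 of the DTR group were the highest in each. Fitted log2 changes were 1.24 (SE 0.28, adjusted p = 0.00174) for Tpsb2, 1.19 (SE 0.26, adjusted p = 0.00114) for Cpa3 and 1.32 (SE 0.27, adjusted p = 6.36e-04) for Tpsg1 in limma. Among 8871 genes tested, 35.8% passed and the median gene was at 0.13. Without the expression filter, the adjusted p became 0.184 for Tpsb2 and 0.121 for Cpa3, while log2 changes stayed at 1.24 and 1.19. The sorted groups also differed in markers of other cells, given below (Mcpt8 on average 2.11 and 343 FPKM and Cd7 0.0314 and 306 FPKM in DTR and Cre sorted cells), and in Kit (196 and 47.55 FPKM); the part of these in the tryptase and Cpa3 results was not tested.

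Tpsab1 did not pass in sorted cells. It was at 489, 615, 200 and 201 FPKM in DTR sorted and at 124, 209, 191 and 416 FPKM in Cre sorted cells, a log2 change of 0.63 (SE 0.37) with overlapping ranges and a limma adjusted p of 0.191. The call depended on several choices. Without replicate 4 of the Cre cells, the highest of its group, the log2 change was 0.95 with a limma adjusted p of 0.0048, and with all libraries it passed at a filter of 5 FPKM (adjusted p = 0.0429), after quantile normalization (0.00444), after rescaling to a common sum (0.0415) and with library weights (0.0161).

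Gzmb went the other way from its companions. DTR sorted cells had 1.78, 0.519, 0.283 and 0.293 FPKM, against 18.8, 11.7, 26.7 and 8.82 FPKM in Cre sorted cells. Every DTR library lay below every Cre library, and the Cre mean was 22.97 times the DTR mean, or 45.25 times without DTR replicate 1, the highest of its group. The fitted log2 change was -3.31 (SE 0.32, limma adjusted p = 7.38e-08), and it ranged from -3.57 to -3.06 when 1 library was left out. Apart from DTR replicate 1, Gzmb was under 1 FPKM in the DTR libraries and reached the filter through the Cre libraries. Its p-value thus rests on a gene admitted by the group in which it was high, and adds little to the levels themselves. Whether this change differs from that in skin cannot be read from these data, since Gzmb was at most 0.305 FPKM in DTR and Cre skin, well under the added 1 FPKM, and the interaction term (-3.22) then largely repeats the change in sorted cells. The levels of Tpsg1 and Tpsab1 in skin, at most 1.63 FPKM, limit their interaction terms likewise, at 0.71 (SE 0.31) and 0.28 (SE 0.51). For Tpsb2 the ablation effect in sorted cells minus that in skin was -0.02 (SE 0.26, adjusted p = 0.961) and for Cpa3 -0.35 (SE 0.21, adjusted p = 0.238) in limma, where 27.7% of 13153 genes passed. Sex, by Xist, also differed between the skin and the sorted samples.

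Markers of other blood cells differed between the sorted groups as well, in the direction of Gzmb. Mcpt8, a granule protease of basophils, was at 2.29, 2.77, 1.80 and 1.58 FPKM in DTR sorted and at 339.5, 467, 258 and 308 FPKM in Cre sorted cells. Prss34, a tryptase-like protease of basophils whose gene lies near the tryptases, was at 0, 0.281, 2.79 and 0.0697 FPKM in DTR sorted and at 20.2, 74.9, 52.0 and 23.7 FPKM in Cre sorted cells. Both were far lower in DTR cells, without overlap. Of the 9 genes of the basophil list, 6 were lower and 1 higher, beside 16.9% of all genes lower and 18.9% higher. Their sum was 1059 to 1766 FPKM in DTR sorted and 1593 to 2237 FPKM in Cre sorted cells, with 0 of 9 listed at 0 throughout either group. Genes of the list that mast cells also express, such as Fcer1a and Cyp11a1, take part in that sum. The cultured mast cells held Prss34 too, at 493 FPKM with vehicle at 6 h and 15.6 FPKM with vehicle at 48 h on average. Cd200r3 averaged 322 and 582.5 FPKM in these 2 groups, and Mcpt8 5.46 and 2.71 FPKM. Prss34 and Cd200r3 are thus not particular to basophils in these data. The T and NK lymphocyte list summed to 7.05 to 17.03 FPKM in DTR sorted and 272 to 432 FPKM in Cre sorted cells, mostly through Cd7, at 0.0314 and 306 FPKM on average. Of its 16 genes in the table, 2 were listed at 0 throughout in each group, Klrd1 among them. Nkg7, a granule protein gene of cytotoxic cells, was at 14.7, 16.6, 6.15 and 10.6 FPKM in DTR sorted and at 66.5, 69.7, 32.7 and 14.9 FPKM in Cre sorted cells, a log2 change of -1.70 (limma adjusted p = 0.00156) with overlapping ranges. Cd3d was at most 0.0435 FPKM in DTR sorted and 2.15 FPKM in Cre sorted cells, Cd3g at most 0.0589 and 1.32 FPKM, Thy1 at most 0.161 and 3.88 FPKM, and Ccl5 was listed at 0 in DTR sorted and reached 20.4 FPKM in Cre sorted cells. Cd3e was at most 0.0797 FPKM in DTR sorted and 0.752 FPKM in Cre sorted cells, and Prf1, perforin, at most 0.161 and 0.394 FPKM. Macrophage genes summed to 6.92 to 17.4 FPKM in DTR sorted and 43.4 to 53.3 FPKM in Cre sorted cells, and the neutrophil genes S100a8 and S100a9 reached 112 and 76.7 FPKM in replicate 3 of the Cre cells alone, the library with the most Gzmb. Without this library the Gzmb change was -3.06. The part of these other markers in the protease results was not tested.

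**Figure D3:**
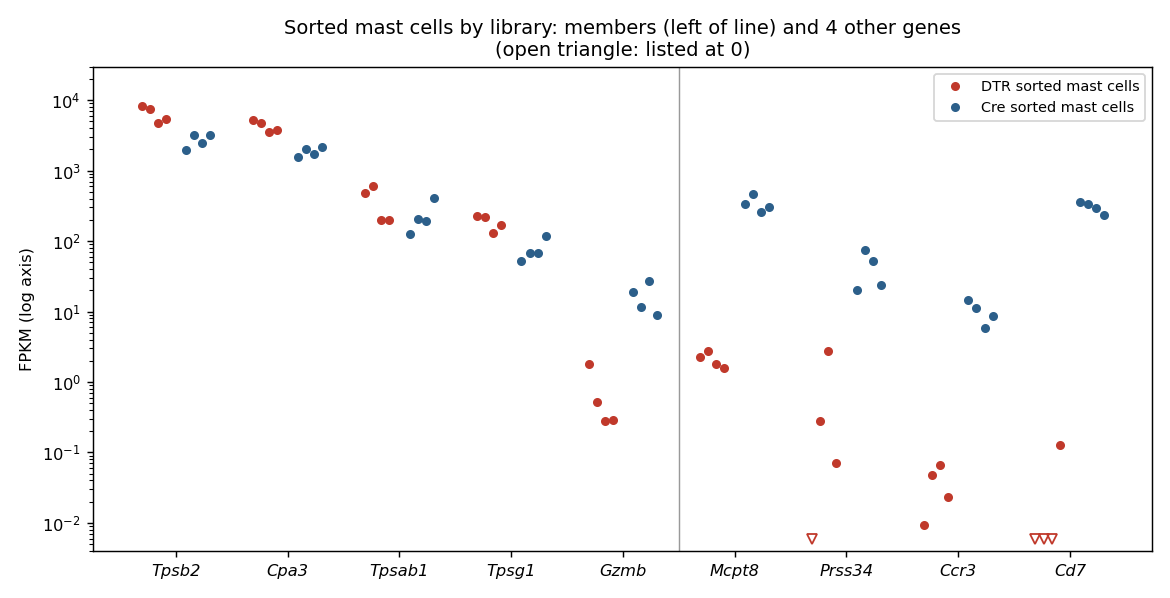
FPKM per library (log axis) of the 5 members and of Mcpt8, Prss34, Ccr3 and Cd7 in DTR sorted (left, red) and Cre sorted cells (right, blue), with open triangles for values listed at 0. Tpsb2, Cpa3 and Tpsg1 are higher in all 4 DTR libraries, and Gzmb and the genes right of the line are lower in all 4.

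In the sorted cells the chymase family genes tested followed the tryptases, and genes that activate, store or inhibit granule proteases were mixed. All 5 chymase family genes tested were higher, by a log2 change of 0.85 for Cma2 up to 1.70 for Ctsg. The ranges of Ctsg overlapped, at 195.4 to 300.1 FPKM in DTR sorted and 37.68 to 284.9 FPKM in Cre sorted cells. Mcpt2 averaged 2.044 and 0.4117 FPKM in these groups and reached the filter through the DTR libraries. Mast cell markers other than proteases were higher for 11 and lower for 2 of 18 tested, with a median of 1.30, led by Kit at 1.99. Of all genes tested, 18.9% were higher and 16.9% lower. Fcer1a and Gata2 went against the other markers without overlap, at 289 and 96.45 FPKM on average in DTR sorted and 573.5 and 228 FPKM in Cre sorted cells. Ndst2, which sulfates the heparin that holds tryptases in the granule, rose by 1.34, and Ctsc, the peptidase that activates granzyme B and chymases, by 1.13. Slpi and Ctse, a secreted protease inhibitor and an aspartic protease, were lower at -5.19 and -3.61. Both were under 1 FPKM in every DTR sorted library and reached the filter through the Cre libraries. Srgn averaged 608 FPKM in DTR sorted and 770 FPKM in Cre sorted cells, with overlapping ranges. Other granzymes and perforin (10 genes) summed to 0.410 to 0.882 FPKM in DTR sorted and 0.031 to 4.54 FPKM in Cre sorted cells and none reached the filter there or in the glutamate and NS102 comparisons, and of the tryptase locus relatives Prss34 was the single gene tested there. Of other carboxypeptidases of the same family as Cpa3, 1 of 2 tested in sorted cells was higher. In DTR skin 1 of 8 tested was lower, beside 6.25% of all genes.

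In culture, glutamate was set against its vehicle at 6 h. Tpsb2 was at 52809, 52483, 55033 and 54079 FPKM with glutamate and at 36557, 37782, 38581 and 39974 FPKM with vehicle. Cpa3 was at 13217, 13193, 12767 and 12170.3 FPKM with glutamate and at 8489, 8298, 8033 and 8265 FPKM with vehicle. Both were higher without overlap, 1.40 and 1.55 times as high. Tpsab1 went the other way, at 237, 237, 229 and 234 FPKM with glutamate and at 383, 388, 365 and 372 FPKM with vehicle. Fitted log2 changes were 0.49 (SE 0.04), 0.63 (SE 0.03) and -0.69 (SE 0.03) for these genes, with limma adjusted p of 4.70e-08, 2.65e-09 and 4.21e-10. Of 8297 genes, 79.3% passed, so that passing was the rule in this comparison.

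Tpsg1 and Gzmb were slightly lower with glutamate. Tpsg1 averaged 396 ± 10.3 FPKM with glutamate and 420.4 ± 2.81 FPKM with vehicle, and Gzmb 303 ± 10.3 and 346 ± 8.55 FPKM in these groups (SD, n = 4 each), both without overlap. The log2 changes were -0.09 (SE 0.03, adjusted p = 0.0131) and -0.19 (SE 0.03, adjusted p = 1.27e-04) in limma. The median of all genes was at -0.33 with glutamate, and with each library centred on its median both turned positive, to 0.33 for Tpsg1 and 0.22 for Gzmb, while Tpsab1 stayed lower at -0.27 and Tpsb2 and Cpa3 higher at 0.90 and 1.05. Calls over all genes shifted likewise, with 1403 higher and 5177 lower as deposited and 3703 higher and 2611 lower after centring. Without the trend in limma or with the spread shared by all cultured groups, Tpsg1 no longer passed (adjusted p = 0.0855 and 0.0842).

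Other granule genes split with glutamate. Of 5 chymase family genes tested, 4 were higher and 0 lower, with Mcpt4 at 0.46. Prss34 was higher, at 755 to 792.5 FPKM with glutamate and 474 to 516 FPKM with vehicle. Srgn rose by 0.63, and Ndst2 fell by 1.46, the change in the storage list with the lowest adjusted p. Of 17 mast cell markers tested, 11 were lower and 4 higher, with a median of -0.42, beside 62.4% of all genes lower, 16.9% higher and a median of -0.33, so that the markers moved much as all genes did; the lowest adjusted p were those of Adora3, an adenosine receptor, and Slc18a2, the granule monoamine transporter, at -1.67 and -1.37. T and NK lymphocyte genes summed to 12.2 to 16.3 FPKM with glutamate and 11.97 to 16.6 FPKM with vehicle.

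NS102 was set against its own vehicle at 48 h, and here the minor tryptases and Gzmb led. Tpsab1 was at 363, 337, 420 and 449 FPKM with NS102 and at 73.3, 64.9, 67.5 and 69.96 FPKM with vehicle. Tpsg1 was at 596, 580, 516 and 533 FPKM with NS102 and at 232, 221, 217 and 233 FPKM with vehicle. Gzmb was at 599.6, 602, 523 and 544 FPKM with NS102 and at 239, 219, 221 and 215 FPKM with vehicle. All NS102 libraries lay above all vehicle libraries, by 5.69 times for Tpsab1, 2.46 times for Tpsg1 and 2.54 times for Gzmb. The log2 changes were 2.48 (SE 0.08), 1.29 (SE 0.06) and 1.34 (SE 0.06), with limma adjusted p of 6.07e-10, 5.39e-09 and 5.43e-09, in a comparison in which 70.5% of 8373 genes passed around a median of -0.06.

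Tpsb2 and Cpa3 moved little with NS102. Tpsb2 was at 43436, 42387, 37394 and 34779 FPKM with NS102 and at 32643, 32008, 32528 and 31858 FPKM with vehicle. The groups did not overlap, but NS102 libraries spread more widely, and the log2 change of 0.29 (SE 0.11, limma adjusted p = 0.0304) did not hold up: leaving out replicate 1 of NS102 or any 1 vehicle library gave adjusted p between 0.0671 and 0.108, and no filter, median centring and the replicate block gave 0.398, 0.221 and 0.140. Cpa3 was at 11493, 13335, 11563 and 10706 FPKM with NS102 and at 13409.8, 12833, 13760 and 12449 FPKM with vehicle, overlapping, with a log2 change of -0.16 (SE 0.09, limma adjusted p = 0.134). Without replicate 2 of NS102 it was -0.22 with an adjusted p of 0.0299.

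Among the other proteases in NS102 cultures, 4 of 6 chymase family genes tested were higher and 1 lower, with Ctsg at 0.88, Mcpt4 at 0.67 and Mcpt2 lower at -0.68, beside 30.8% of all genes higher and 39.7% lower (2579 and 3323 as deposited, 3091 and 2468 after rescaling to a common sum). Prss34 was lower, at 10.3 to 11.6 FPKM with NS102 and 14.2 to 17.9 FPKM with vehicle. Of 13 tested genes that activate, store or inhibit granule proteases, 3 were higher and 7 lower, a share past the test near that of all genes, among them Ctsc at -0.46 and Serpina3g, a serine protease inhibitor, at -1.14. Mast cell markers were higher for 8 and lower for 6 of 17 tested, with Hdc, histidine decarboxylase, at 1.11.

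**Figure D4:**
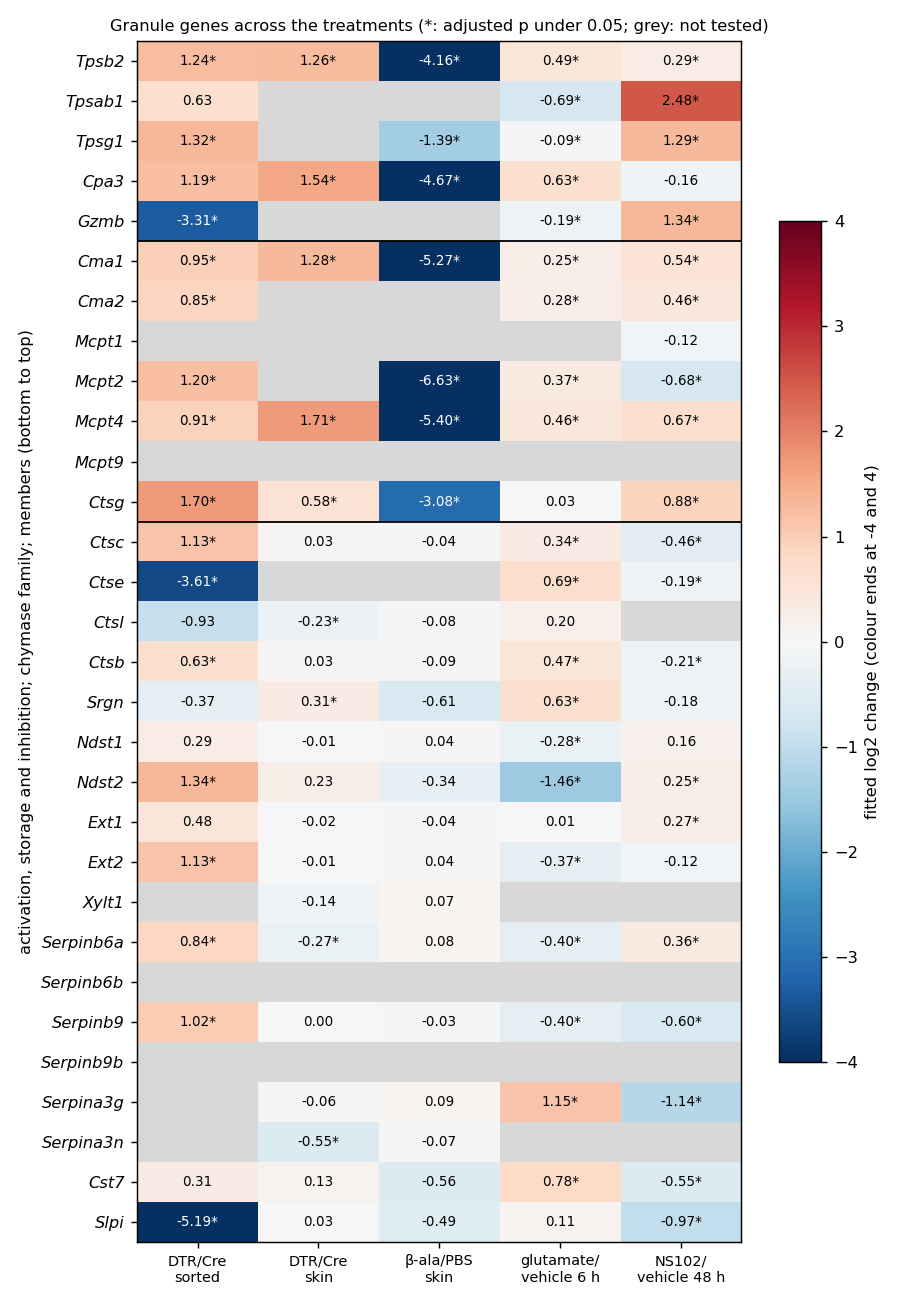
Fitted log2 changes (numbers and colour) of the members, of 7 chymase family genes and of 18 genes that activate, store or inhibit granule proteases, in the 5 treatments; asterisks mark adjusted p under 0.05 and grey cells were under the filter. The chymase genes tested share the sign of Tpsb2 in skin and sorted cells, while the lower block is mixed. Cma2, under the filter in both skin comparisons, differed in mean FPKM in the direction opposite to Tpsb2 there.

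Both vehicle groups differed in time and medium, which cannot be told apart, and each is also the control of 1 treatment above. Tpsab1 was at 68.9 ± 3.61 FPKM at 48 h and 377 ± 10.3 FPKM at 6 h (SD, n = 4 each), a log2 change of -2.44 (SE 0.04). Tpsg1 (-0.89), Gzmb (-0.63) and Tpsb2 (-0.24) were lower too, and Cpa3 was higher at 0.66, all without overlap (limma adjusted p at most 6.65e-05, with 71.9% of genes past the test). Tpsb2 lost its call with median centring (-0.16, adjusted p = 0.0569). Prss34 was lower as well, at 15.6 ± 1.68 FPKM at 48 h and 493 ± 17.6 FPKM at 6 h. With NS102 at 48 h, Tpsab1 (391.9 FPKM) thus stood near its 6 h vehicle level of 377 FPKM, whereas Prss34 (11.2 FPKM) did not stand near its own of 493 FPKM.

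Compared with vehicle cultures at 48 h, Cre sorted cells had more Tpsab1 and less of the rest. The log2 changes were 1.62 (SE 0.29) for Tpsab1, -3.59 (SE 0.16) for Tpsb2, -1.62 (SE 0.21) for Tpsg1, -2.80 (SE 0.12) for Cpa3 and -3.79 (SE 0.27) for Gzmb (limma adjusted p at most 4.69e-04), with 73.9% of genes past the test and a median of -0.51. With libraries rescaled to a common sum, Tpsg1 was at -0.51 with an adjusted p of 0.0590. Strain and tissue of origin differ along with culture.

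Ratios between members within a library do not depend on how it was scaled. Cpa3 over Tpsb2 was 0.680 ± 0.0468 in DTR sorted and 0.704 ± 0.0708 in Cre sorted cells, 1.87 ± 0.0455 in DTR and 1.59 ± 0.251 in Cre skin, and 0.240 ± 0.0132 with glutamate and 0.217 ± 0.0118 with its vehicle (SD, n = 4 each). These differences did not pass in exact permutation tests (adjusted p = 0.6, 0.152 and 0.106 over 16 ratio tests). The ratio was lower with NS102, 0.299 ± 0.0232, than with vehicle at 48 h, 0.406 ± 0.0138 (exact permutation test, adjusted p = 0.0381, which was the smallest the design gave). Thus Cpa3 had the higher FPKM of the pair in all DTR, Cre and PBS skin libraries, and Tpsb2 did in all sorted and cultured libraries; in β-alanine skin, where both were under 1 FPKM, the ratio ran from 0.580 to 10.6. Tpsab1 was 1 part in 229 of Tpsb2 with glutamate and 1 in 101 with vehicle at 6 h, and 1 in 101 with NS102 and 1 in 469 with vehicle at 48 h, as geometric means. Both differences had an exact permutation adjusted p of 0.0381. Gzmb over Cpa3 differed by -0.83 with glutamate and by 1.501 with NS102 on the log2 scale, again each with an adjusted p of 0.0381 in exact permutation tests.

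**Figure D5:**
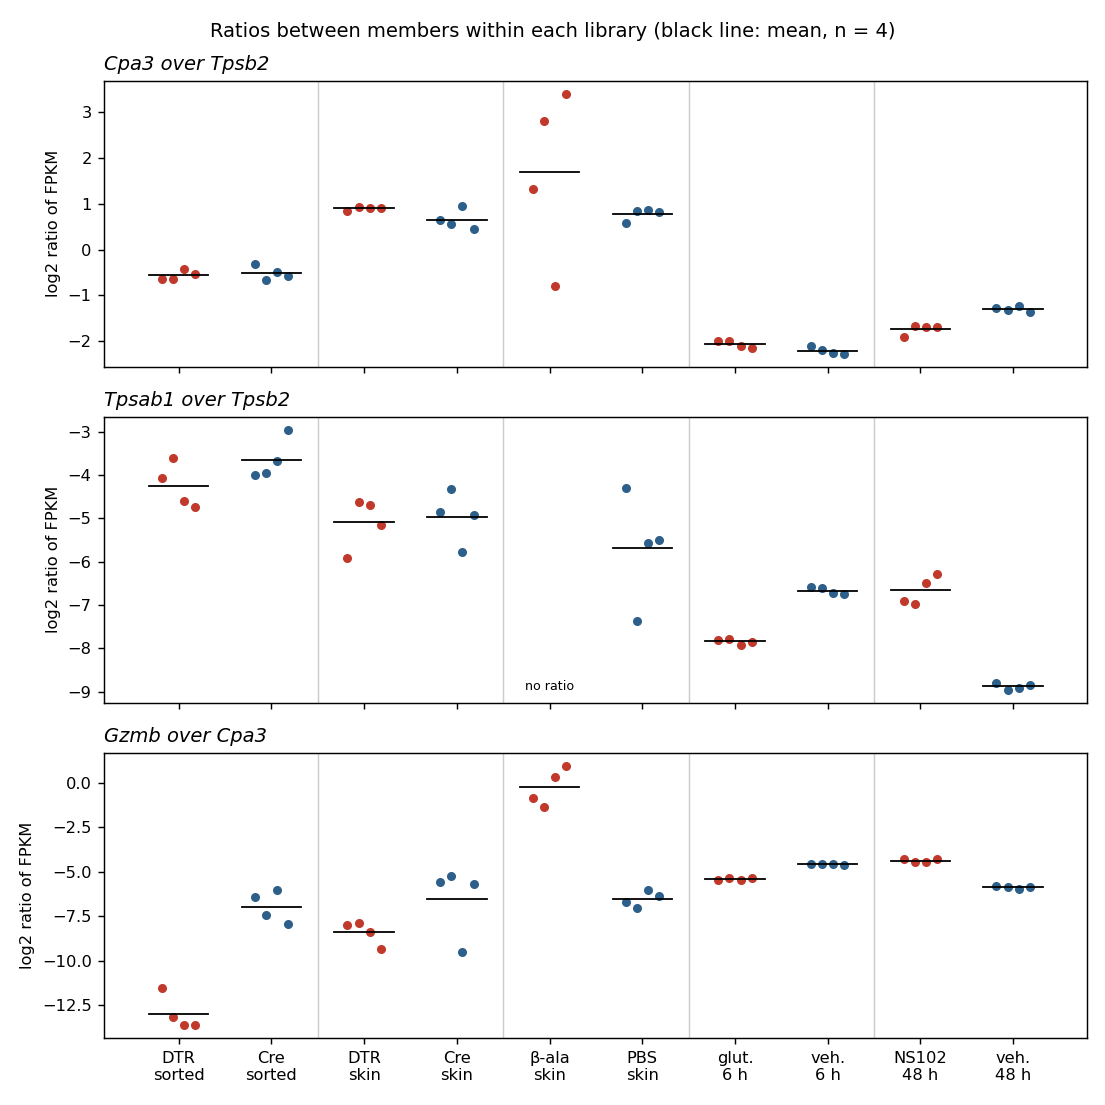
Log2 ratio of FPKM within each library for Cpa3 over Tpsb2, Tpsab1 over Tpsb2 and Gzmb over Cpa3, with the mean of 4 libraries as a black line; groups with a member listed at 0 have no ratio. Cpa3 over Tpsb2 is above 0 in the DTR, Cre and PBS skin libraries and below 0 in all sorted and cultured libraries.

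Likeness of pattern was described by Pearson's r of log2(FPKM + 1) over the 40 libraries among 9665 genes with a mean of at least 5 FPKM in some group; these points share libraries and mostly reflect the gap between skin and isolated cells. Tpsb2 was most like Cpa3 (0.9947), Cma1 (0.9922), Tpsg1 (0.9903), Cyp11a1 (0.9895) and Itga2b (0.9857). Cpa3 had Cma1 (0.9972) first and Tpsb2 second. Tpsab1 was nearest to Tmem180 (0.9893), Dapp1 (0.9890), Kcne3 (0.9850), Serpinb1a (0.9821) and Vav1 (0.9812), with Tpsg1 at place 18 and Tpsb2 at place 80. Gzmb was nearest to Hs3st1 (0.9917), a heparan sulfate sulfotransferase, Cd300a (0.9887), C5ar2 (0.9811), H2-D1 (0.9762) and Cd300lb (0.9755), and its r with the other members was 0.756 to 0.863.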

How the data were processed

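The authors deposited 1 table of FPKM values for 23812 rows and 40 libraries, made with STAR and Cufflinks on mm9 per the submitters' processing notes, without version numbers; the unit was read from the values, since the header does not name it. Annotation, filters, strandedness and read lengths are not given in the sources used here. Counts were not used. Low values resolved only in part into whole reads: 40.4% to 66% lay within 0.03 log2 of steps, against 10.7% to 14.1% on average over the shifts tried. The best shifts put libraries at 0.574 (DTR sorted replicate 3) to 1.41 times the depth of replicate 1 of their group. Absolute depth is unknown, and no counting interval is given.

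The members and gene lists were chosen with earlier results of these data known. Each of 8 comparisons (5 treatments and 3 for context) used its own 8 libraries, and an interaction 16. Rows with at least 1 FPKM in at least 4 libraries were tested on log2(FPKM + 1), so that folds of low genes are understated, with limma 3.58.1 in R 4.3.3 (mean-variance trend, two-sided, Benjamini-Hochberg over all rows tested, threshold 0.05). Members under the filter (5 tests) and ratios between members (16 tests) had two-sided exact permutation tests over 70 splits. The procedure was tested on simulated data. Genes from lists were named in order of adjusted p, at most 4 per list and comparison; Cd3d, Cd3e, Cd3g, Thy1, Ccl5, Klrd1, Prf1, S100a8, S100a9, Kit, Ms4a2 and Xist levels, and Mcpt2 in DTR and Cre skin, were added after their values were seen. Promoters came from RefSeq GRCm38.p6, a different build. Python 3.11.15, pandas 2.3.3 and scipy 1.17.1 did the rest. Alternatives were pseudocounts of 0.1 and 5, other filters and scalings, limma without trend, robust, weighted or with a shared spread, the replicate block, and leaving out each library.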

Additional observations from a re-analysis of the deposited data

Results flagged for a closer look

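Among 49 sets of 4 libraries (1 member in 1 group each) searched for a library far from the others, 2 held one; chance flags about 1 in 20 such sets. Gzmb was at 1.781 FPKM in DTR sorted cells replicate 1, while the other 3 lay between 0.2834 and 0.5188 FPKM. Tpsg1 was at 0.06522 FPKM in β-alanine skin replicate 1 and listed at 0 in the other 3.

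The limma interaction term of Gzmb, the ablation effect in sorted cells minus that in skin, was -3.223 (adjusted p = 1.17e-05). Gzmb was at most 0.305 FPKM in the skin libraries, under the added 1 FPKM, and reached the filter through Cre sorted cells, so the term largely repeats the change in sorted cells (-3.31) and does not show that skin behaves differently. Mcpt8, Prss34, Ccr3 and Cd7 were also lower in all 4 DTR sorted libraries, and their part in the sorted-cell change was not tested.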

How the results depend on the processing

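For the log2 changes of members, 758 results under alternatives kept their direction and side of the threshold, 13 reversed, 18 lost the call and 16 gained one. The reversals of called results were Gzmb (0.2215) and Tpsg1 (0.3257) with glutamate under median centring; without trend or with a shared spread, Tpsg1 stayed at -0.08669 and lost its call. Quantile normalization set Tpsb2, the top row of each cultured library, to a change of 0 with glutamate, with NS102 and between the vehicles, and Cpa3 to 0 with glutamate, since it gives equal ranks equal values. In sorted cells, no filter ended the calls of Cpa3 (1.193) and Tpsb2 (1.241), and Tpsab1 gained one with a filter of 5 FPKM (0.6346), quantile normalization (1.324), TPM rescaling (0.9364) and library weights (0.8888), and ranged from 0.3382 to 0.9546 with 1 library left out. With NS102, Tpsb2 lost its call with no filter (0.2863), median centring (0.2697) and the replicate block (0.2863), and ranged from 0.2386 to 0.3455 with 1 library left out; Cpa3 gained one with quantile normalization (-0.2672) and a shared spread (-0.1589), and ranged from -0.2203 to -0.1147. Median centring ended the call of Tpsb2 between the vehicles (-0.1622), and TPM rescaling that of Tpsg1 in Cre sorted cells over vehicle at 48 h (-0.513). In the interaction, quantile normalization gave calls for Cpa3 (-0.7147), Tpsab1 (1.309) and Tpsg1 (1.892), and Tpsg1 also passed with a pseudocount of 5 (1.078), median centring (0.7094) and library weights (0.9569), and ranged from 0.547 to 0.9423 with 1 library left out, past the test without Cre sorted replicate 4 (adjusted p = 0.00772 in limma) and without DTR sorted replicate 3 (0.0391). The other reversals were interaction terms that did not pass: Tpsab1 (0.2836) at -0.334 with a pseudocount of 0.1 and from -0.01283 to 0.6036 with 1 library left out, and Tpsb2 (-0.02085) at 0.2741 with a pseudocount of 5, 0.1657 with TPM rescaling, 0.06118 with library weights and from -0.1644 to 0.1092 with 1 library left out. The ratio of Cpa3 to Tpsb2 in sorted cells, not past its test, also changed sign without Cre sorted replicate 1. Apart from the quantile zeros, the causes were not tested. Same-numbered libraries correlated over 0.1 in all pairs of no comparison (lowest r from -0.222 to -0.00197). At most 3 of 4 pairs correlated best with their own number, as in DTR over Cre skin and DTR over Cre sorted cells. Whether equal numbers stand for a shared batch or animal cannot be told from this. The replicate block changed no other call of a member. Counts of all genes past the test moved by over 1.5 times in 19 of 186 cases. In DTR skin, 1719 became 729 with a shared spread and 773 to 1122 without Cre skin replicate 2 or 4 or DTR skin replicate 1, 2 or 3. In β-alanine skin, 27 became 130 with a shared spread, 46 with library weights and 11 to 13 without any 1 PBS library. TPM rescaling took 3173 to 5110 in sorted cells and 3639 to 5488 in the interaction. With fewer genes tested at a filter of 5 FPKM, counts were 1897 in sorted cells against 3173, 3962 with glutamate against 6580, 3757 with NS102 against 5902, 3888 between the vehicles against 6087, and 4219 for Cre sorted cells over vehicle at 48 h against 6458. Absolute depth is unknown, and members under 1 FPKM in skin rest on values near 0.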
